A study of Mus musculus with 24 samples.

Results

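The genes described here build the secretory machinery of the endoplasmic reticulum (ER). They were 45 listed genes of protein translocation, folding, glycosylation and ER stress, and all 45 were found by Ensembl identifier among the 63862 genes of each expression table. They were chosen for their function, with earlier results of these data known. RNA of the mouse lacrimal gland (LG), which secretes the watery part of the tear film, and of LG stem cells (LGSCs) grown as spheres was measured by RNA sequencing. The groups were adult LG and LG of the embryonic stages E17.5 and E19.5 (days after conception), each with 3 libraries, and passage 2 LGSC spheres with 2 libraries at day 5 and 3 libraries each at day 7, day 10 and day 14. A further library of passage 10 LGSC spheres cultured for 7 days was used for its values only. All groups were of the strain C57BL/6, and the labels name no transgene.

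The tissue libraries held the whole gland with all its cell types. The spheres were grown from dissociated LGs of mice aged 6 to 8 weeks, in Matrigel with a serum-free medium (LGSCM) that contains EGF, FGF10, Wnt3A and the ROCK inhibitor Y-27632, so spheres and tissue differed in cell make-up and in culture at once. No label states that libraries of a group came from separate mice or cultures, so each p-value measures the spread between these libraries only. In bulk RNA of this kind, fewer cells of a type and less RNA per cell cannot be told apart.

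A protein that is to be secreted is recognised at the ribosome by the signal recognition particle and threaded through the Sec61 channel into the ER. There signal peptidase removes its signal sequence, the oligosaccharyltransferase attaches sugar chains, and chaperones and protein disulfide isomerases fold it. Proteins that do not fold are sent back for degradation, and an overload switches on the stress pathways that raise the amount of this machinery. Gland cells that secrete much protein, such as LG acinar cells, are known for a dense rough ER.

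The deposited values were FPKM, which are reads scaled to gene length and to a total per library. The reads behind them were recovered from the steps between low values, and came to 6434711 to 9257981 reads per library and 25181779 in the passage 10 library. The total that the deposited values were scaled to was not the read total in adult LG. Recovered reads divided by that scale were 2.67, 2.57 and 1.103 in the 3 adult libraries and 0.832 to 1.13 in the other 17 libraries. Of adult reads, 60.4%, 59.6% and 31.3% fell on the 10 genes with the most reads, against 5.44% to 8.07% elsewhere. Adult replicate 3 therefore stood apart from adult replicates 1 and 2, and the comparisons with adult LG were made on 3 scales. They are the deposited FPKM, the FPKM rescaled to the recovered reads of each library (read-scaled FPKM), and the FPKM rescaled so that each library sums to the same total (TPM). From the deposited to the read-scaled values, the median log2 difference of all genes between E17.5 and adult LG moved from 0.05 to 0.64, and in TPM it was 1.23.

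The libraries numbered 2 of LGSC days 5, 7, 10 and 14 stood apart in a list of 5 ductal markers. Their summed FPKM was 131 to 179 in these 4 libraries and 700 to 1753 in the sphere libraries numbered 1 and 3, almost all of it from Krt18, while Krt8 and Krt23 were listed at 0 in every library. Results on spheres are therefore also given without the libraries numbered 2.

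Not every member was measured equally well. In the passage 10 library, whose table was made against another gene list and scaled separately, all 45 members had at least 11.9 FPKM. In the passage 2 libraries at day 7, 16 of the 45 members (35.6%) had a mean under 0.1 of their passage 10 value. Calr, a lectin chaperone of the ER lumen, had 255 FPKM in passage 10 and a mean of 2.01 at day 7. The disulfide isomerases Pdia3 and P4hb had 272 and 185 FPKM against means of 0.141 and 0.0768. Spcs3, Creld2 and Atf4 were listed at 0 in all 20 libraries, and 7 members stayed under 0.5 FPKM in all 20.

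This was not particular to the members, since 2696 of the 5333 genes with at least 10 FPKM in passage 10 (50.6%) were also under 0.1 of it at day 7. The cause was not tested. Members could also lie above their passage 10 value, as did Hspa5 with 389 FPKM against 207, Sec11c with 59.7 against 15.5 and Sdf2l1 with 79.2 against 17.0. The 29 members at or above 0.1 are called well listed here. Ssr4 lay just inside this limit, with a mean of 4.29 FPKM at day 7 and 25.4 in passage 10, as did Sel1l with 2.12 and 11.96, and Stt3a lay just outside it with 0.985 and 22.2.

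**Figure D1:**
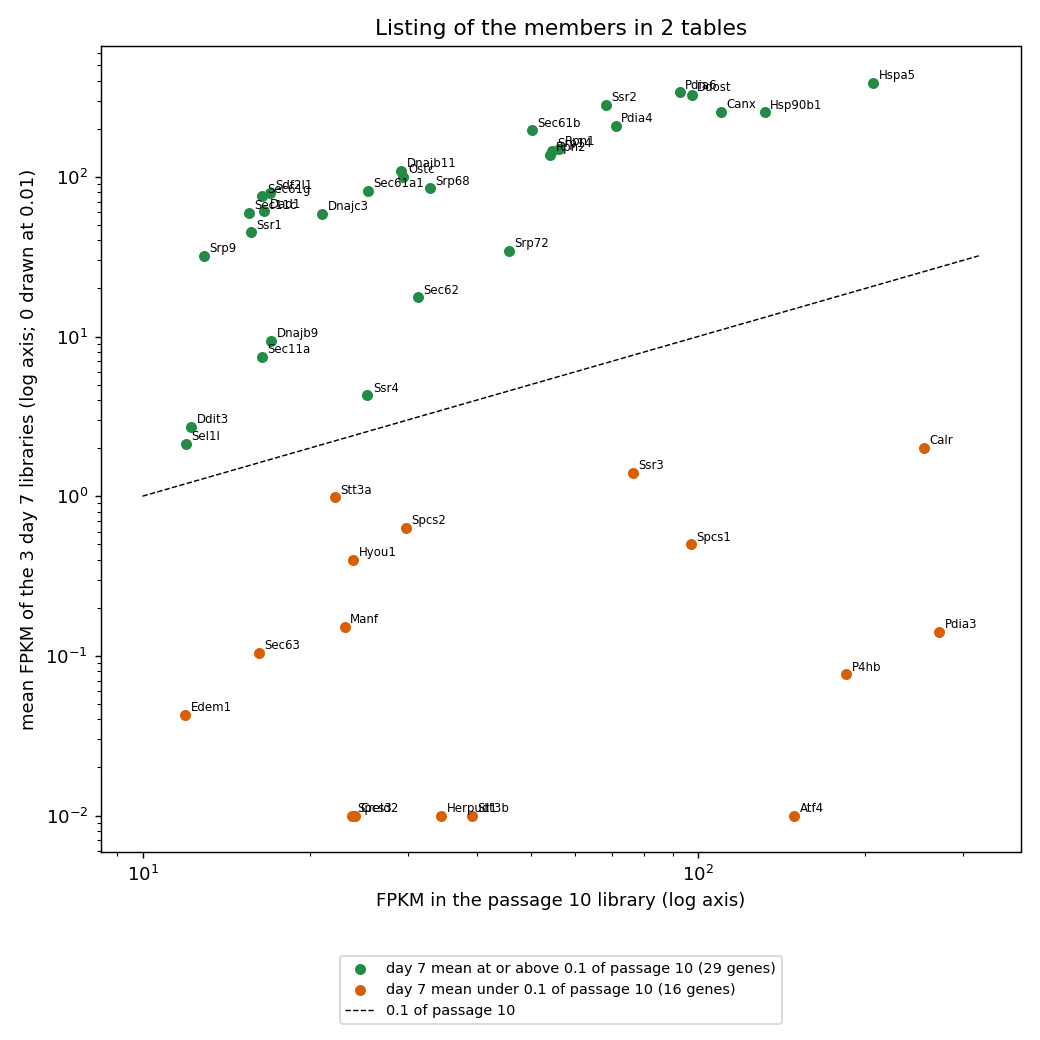
Mean FPKM of each of the 45 members in the 3 passage 2 libraries at day 7, against its FPKM in the single passage 10 library, both on log axes. The 16 members under 0.1 of the passage 10 value lie apart from the other 29, and Spcs3, Creld2 and Atf4 were at 0 at day 7.

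Taken as 1 sum, the members made up 1.01% to 1.38% of the recovered reads in adult LG and 1.08% to 1.57% in the other libraries. Such shares and sums rest mainly on the 29 well-listed members. The 16 others added little, although Pdia3, Calr and P4hb among them had 272, 255 and 185 FPKM in passage 10. The summed level in deposited FPKM was 10939, 9434 and 3312 in the adult libraries, 3858 to 4072 at E17.5, 3587 to 4659 at E19.5 and 2593 to 4575 in the spheres. Read-scaled mean sums (± SD, n = 3 each) were 3592 ± 554 in adult LG, 4127 ± 130 in E17.5 LG, 3879 ± 294 in E19.5 LG and 3959 ± 97.8 for LGSC day 7. The adult libraries thus ranked highest on the deposited scale in 2 of 3 cases, and the groups overlapped once the values were scaled to reads. Of the summed FPKM of a library, which is what TPM is scaled to, the members made up 0.377% to 0.502% in adult LG and 0.836% to 1.19% in the others, so on that scale every adult library was lower than every other.

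**Figure D2:**
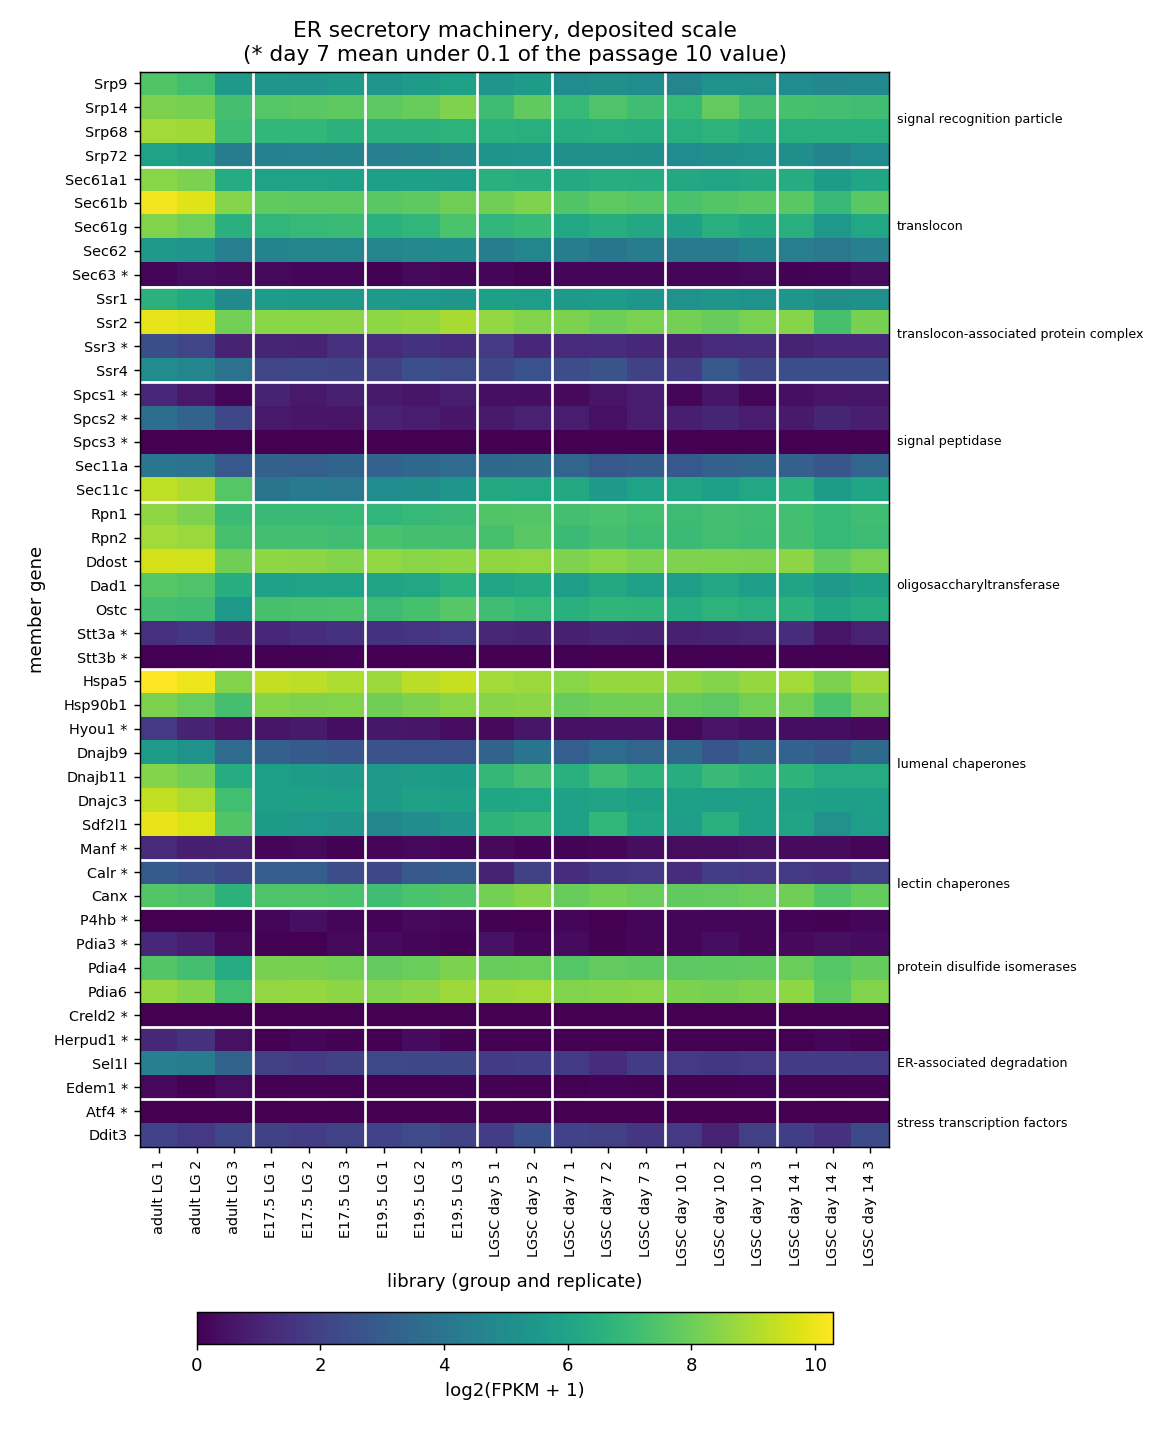
Colour gives log2(FPKM + 1) on the deposited scale for each of the 45 members (rows, grouped by role) in the 20 libraries (columns), with an asterisk on the 16 under-listed members. The columns of adult replicates 1 and 2 are brighter than all others in most rows, Sec11c, Dnajc3 and Sdf2l1 are also bright in adult replicate 3, and the rows of Spcs3, Creld2 and Atf4 are at 0.

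The signal recognition particle was represented by Srp9, Srp14, Srp68 and Srp72, all well listed. Srp14, which forms a dimer with Srp9, had the highest level of them. Its deposited FPKM was 304, 287 and 153 in adult LG, 191, 199 and 215 at E17.5 and 205, 237 and 315 at E19.5. In the spheres it was 136 and 221 at day 5 and 119, 176 and 141 at day 7, followed by 116, 222 and 152 at day 10 and 155, 149 and 139 at day 14. These groups overlapped, and E17.5 did not differ from adult LG on the deposited scale (log2 difference −0.24, adjusted p = 0.50). Read-scaled, the adult values were 114, 112 and 138 and lay below the 196, 207 and 222 of E17.5. Srp68, which with Srp72 binds the RNA of the particle, showed the opposite order, with 462, 446 and 135 FPKM in adult LG and 112, 110 and 97.9 at E17.5 (log2 difference −1.50, adjusted p = 0.015; read-scaled −0.48, adjusted p = 0.034), although in TPM its E17.5 value was the higher (0.73, adjusted p = 0.021).

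Of the translocon, Sec61a1, Sec61b and Sec61g form the channel and Sec62 and Sec63 serve proteins that enter after translation. Sec61b had 1100, 879 and 337 FPKM in adult LG, 216, 214 and 210 at E17.5 and 200, 209 and 268 at E19.5. At LGSC days 5, 7, 10 and 14 it had 263 and 314, then 180, 212 and 194, then 161, 182 and 202, and then 199, 124 and 200. All adult values were above all others on this scale. The fall from adult to E17.5 was −1.69 ± 0.39 (log2 difference ± SE, adjusted p = 0.0061) and also passed read-scaled (−0.67, adjusted p = 0.0037), but in TPM the difference was 0.55 (adjusted p = 0.055). Sec63 was under-listed and was not tested.

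The translocon-associated protein (TRAP) complex, subunits Ssr1 to Ssr4, sits beside the channel. Ssr2 led, with 987, 883 and 273 FPKM in adult LG, 347, 354 and 357 at E17.5 and 375, 400 and 494 at E19.5. In the spheres it had 397 and 325 at day 5 and 301, 255 and 293 at day 7, followed by 284, 237 and 299 at day 10 and 343, 155 and 286 at day 14. Adult replicate 3 lay below all embryonic libraries while adult replicates 1 and 2 lay above them, and the difference from E17.5 did not pass (−0.81, adjusted p = 0.14). Ssr4, at a lower level, had 30.0, 24.7 and 13.4 FPKM in adult LG against 3.40, 3.62 and 3.35 at E17.5, a difference that passed on the deposited (−2.34, adjusted p = 0.00016) and the read-scaled values (−1.39) but not in TPM (−0.37, adjusted p = 0.33).

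Of the 2 well-listed members of signal peptidase, Sec11c showed a wider spread among groups than Sec11a. Sec11a and Sec11c are alternative catalytic subunits of this enzyme, and Spcs1, Spcs2 and Spcs3 are its accessory subunits. Sec11c had 638, 531 and 192 FPKM in adult LG, 14.3, 17.8 and 16.4 at E17.5 and 30.9, 34.0 and 42.7 at E19.5. In the spheres it had 74.8 and 71.8 at day 5 and 72.2, 45.4 and 61.4 at day 7, followed by 66.7, 54.4 and 71.5 at day 10 and 96.4, 49.6 and 66.2 at day 14. The groups lay in the order adult LG, LGSC spheres, E19.5 LG and E17.5 LG, with no overlap between tissue stages or between spheres and tissue, while the sphere days overlapped among themselves. Read-scaled means (± SD, n = 3 each) were 207 ± 32.6 in adult LG, 16.7 ± 1.88 in E17.5 LG, 34.1 ± 3.73 in E19.5 LG and 67.4 ± 19.7 for LGSC day 7. In TPM, however, the adult values of 230, 212 and 291 overlapped those of the spheres, which ranged from 122 to 288.

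Sec11a had 15.5, 14.0 and 6.14 FPKM in adult LG and 7.94, 7.67 and 8.86 at E17.5. The ratio of Sec11c to Sec11a within a library does not depend on the scale. It was 41.1, 37.9 and 31.3 in adult LG, 1.81, 2.32 and 1.85 at E17.5, 3.68, 3.32 and 3.80 at E19.5, and 6.76 to 12.1 in the spheres. Adult replicate 3, which stood apart in scaling and in its cell type markers (given below), was close to the other 2 adult libraries in this ratio. The ratios given here were chosen after the values had been seen and are a description. Spcs2, under-listed, had 12.3, 8.67 and 3.70 FPKM in adult LG and 0.474 to 0.639 at E17.5.

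**Figure D3:**
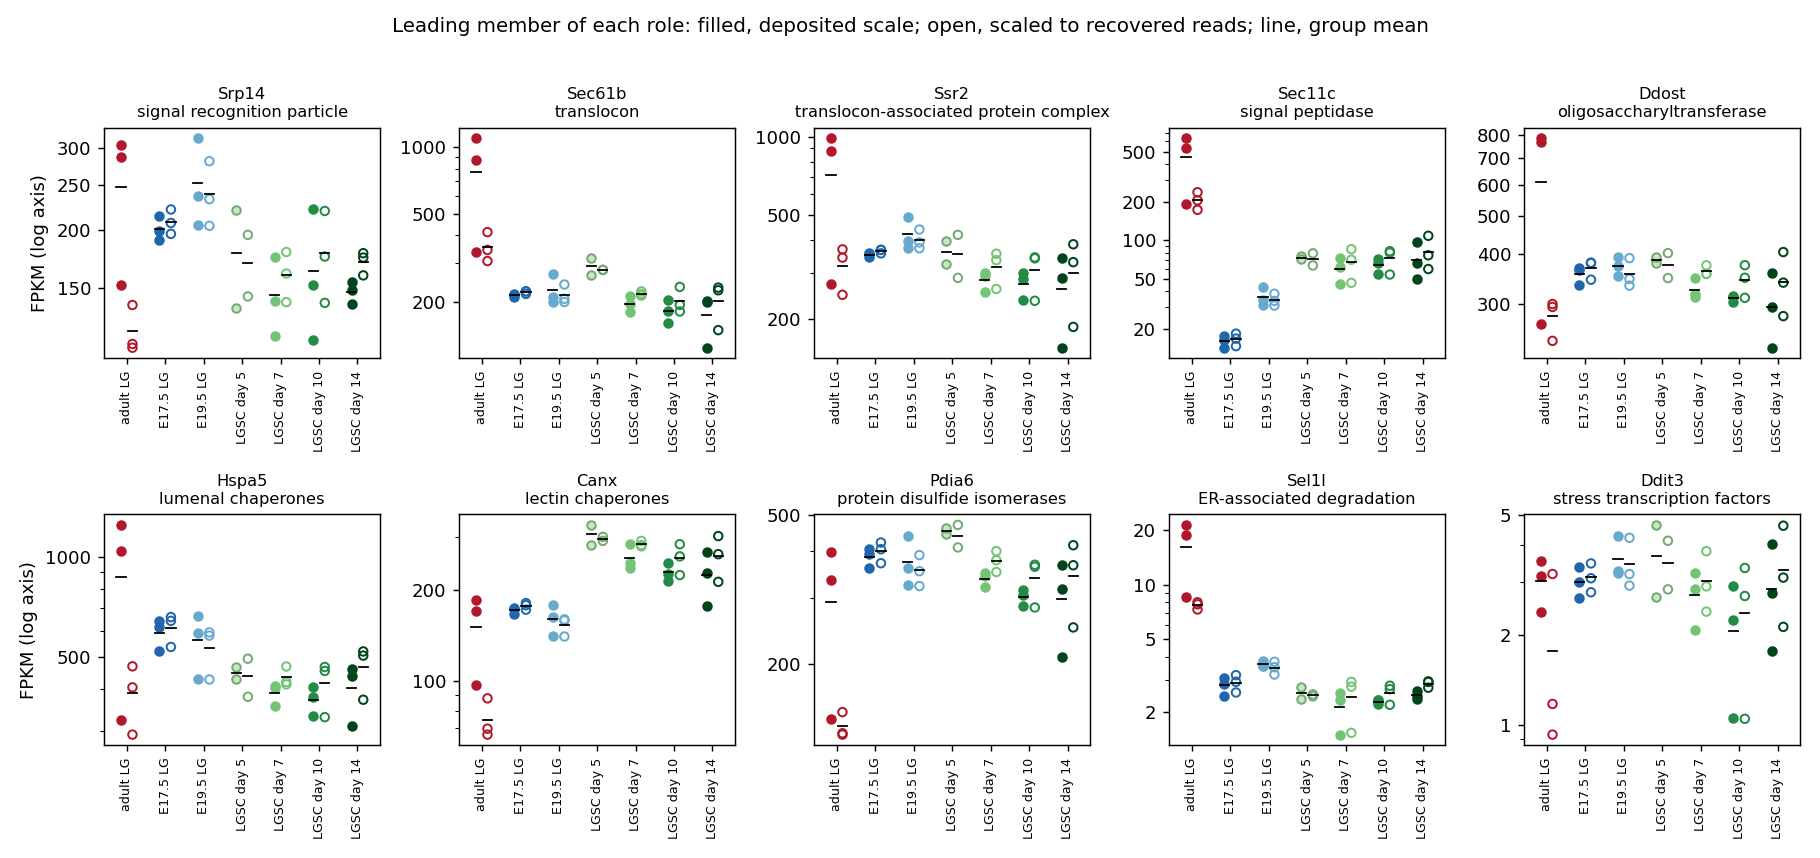
Level in each of the 20 libraries of the member with the highest mean in each of the 10 roles, on log axes, as deposited FPKM (filled) and read-scaled FPKM (open), with a line at each group mean. Of the 10, Sec11c is the one whose adult, sphere, E19.5 and E17.5 values do not overlap on either scale, and the 3 adult libraries lie closer together in the open points than in the filled ones for all but Ddit3.

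The oligosaccharyltransferase had 5 well-listed subunits, and its catalytic subunits Stt3a and Stt3b were under-listed. Ddost had 786, 770 and 267 FPKM in adult LG, 371, 365 and 335 at E17.5 and 393, 353 and 374 at E19.5. In the spheres Ddost had 380 and 393 at day 5 and 318, 349 and 312 at day 7, followed by 313, 313 and 303 at day 10 and 359, 233 and 294 at day 14. The libraries of spheres and embryo overlapped, and 2 of the 3 adult libraries lay above them. On the other scales this order turned: read-scaled, Ddost was 295, 300 and 242 in adult LG against 381, 380 and 345 at E17.5, and in TPM 283, 308 and 405 against 1063, 1048 and 939. Ostc, a small subunit that ties the enzyme to the translocon, showed another order, with 149, 141 and 45.9 FPKM in adult LG, 156, 161 and 165 at E17.5 and 92.6, 105 and 102 at LGSC day 7. Read-scaled, Ostc was 50.8 ± 8.04 (SD, n = 3) in adult LG and 166 ± 5.33 (n = 3) at E17.5 (log2 difference 1.70 ± 0.17, adjusted p = 4.8e-05), whereas on the deposited scale the difference did not pass (0.69, adjusted p = 0.18).

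The lumenal chaperones are built around Hspa5 (BiP), the Hsp70 chaperone of the ER. Dnajb9, Dnajb11 and Dnajc3 are co-chaperones that drive its cycle, Sdf2l1 binds Dnajb11, Hsp90b1 is the Hsp90 of the ER, and Hyou1 and Manf act on nucleotide exchange. Several of these genes carry in their promoter an ER stress response element (ERSE), the letters CCAAT followed after any 9 bases by CCACG, which are known to be bound by NF-Y together with Atf6 or Xbp1. Promoter windows of 250 bases before to 50 bases after the start were taken from RefSeq (build GRCm38.p6) and searched on both strands. They were found for 37 of the 45 members, while Srp68, Sec61a1, Ssr2, Spcs3, Sec11c, Ostc, Hyou1 and Manf had none in that table. An ERSE was present in 7 of the 37 members (18.9%) and in 37 of all 27025 genes with a window (0.137%). The matches are shown because they mark a sequence shared by chaperones whose levels, given below, took different courses. Capitals mark the ERSE, and each stretch is written in the direction of its gene. The near match of Hsp90b1 and the matches of Calr and Creld2 lie on the opposite strand and appear here in reverse.
Hspa5 (chr2:34772005-34772063, plus strand): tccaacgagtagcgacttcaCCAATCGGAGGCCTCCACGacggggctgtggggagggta
Hsp90b1, far match (chr10:86705618-86705676, minus strand): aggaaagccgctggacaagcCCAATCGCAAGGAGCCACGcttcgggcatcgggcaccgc
Hsp90b1, near match (chr10:86705513-86705571, minus strand): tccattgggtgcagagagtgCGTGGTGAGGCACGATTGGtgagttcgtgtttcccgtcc
Dnajc3 (chr14:118937807-118937865, plus strand): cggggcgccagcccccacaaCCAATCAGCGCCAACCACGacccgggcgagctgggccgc
Canx (chr11:50325780-50325838, minus strand): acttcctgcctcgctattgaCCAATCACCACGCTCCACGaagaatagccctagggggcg
Pdia6 (chr12:17266471-17266529, plus strand): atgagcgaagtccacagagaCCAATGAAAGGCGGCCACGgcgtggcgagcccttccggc
Calr (chr8:84847055-84847113, minus strand): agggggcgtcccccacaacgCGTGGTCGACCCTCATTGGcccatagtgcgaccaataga
Creld2 (chr15:88819500-88819558, plus strand): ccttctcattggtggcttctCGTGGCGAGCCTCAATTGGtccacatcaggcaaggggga

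The second element of this kind, ERSE-II (ATTGG and CCACG with any 1 base between them), was present in Dnajb11 and Herpud1, 2 of the 37 members (5.41%), and in 12 of all 27025 genes (0.0444%). ERSE and ERSE-II share the bases CCACG and in reverse the CCAAT box, but no match of one overlapped a match of the other among the members. The letters TGACGTGG of the unfolded protein response element were in none of the 37 member windows and in 0.714% of all genes.
Dnajb11 (chr16:22857832-22857882, plus strand): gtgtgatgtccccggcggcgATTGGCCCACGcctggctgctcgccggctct
Herpud1 (chr8:94386357-94386407, plus strand): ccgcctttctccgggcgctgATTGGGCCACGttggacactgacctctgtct

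In passage 10 Hspa5, with 207 FPKM, lay below Pdia3 and Calr, with 272 and 255. Over the other 20 libraries Hspa5, with an ERSE 65 to 47 bases before its start, had the highest mean FPKM of all members. Its deposited FPKM was 1249, 1040 and 322 in adult LG, 640, 617 and 520 at E17.5 and 430, 590 and 665 at E19.5. In the spheres Hspa5 had 466 and 428 at day 5 and 356, 404 and 408 at day 7, followed by 378, 332 and 405 at day 10 and 460, 309 and 437 at day 14. Adult replicates 1 and 2 were the highest of all libraries and adult replicate 3 was lower than every library of E17.5. Read-scaled, adult LG had 468, 405 and 292 and E17.5 had 659, 642 and 536, and this rise at E17.5 passed (0.68 ± 0.20, adjusted p = 0.019), although the deposited values did not (−0.34 ± 0.46, adjusted p = 0.56). The read-scaled rise was close to the median difference of all genes on that scale (0.64).

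The partners of Hspa5 did not follow it. Sdf2l1 had 978, 829 and 181 FPKM in adult LG, 47.3, 43.8 and 40.5 at E17.5 and 26.6, 31.9 and 40.7 at E19.5. In the spheres Sdf2l1 had 101 and 115 at day 5 and 57.7, 113 and 67.1 at day 7, followed by 51.3, 87.9 and 55.9 at day 10 and 64.2, 35.9 and 53.9 at day 14. All adult libraries lay above all others. Within a library, Sdf2l1 was 0.783, 0.798 and 0.563 of Hspa5 in adult LG, 0.0541 to 0.0779 in the embryo and 0.116 to 0.279 in the spheres, where the highest ratios, 0.265 to 0.279, were those of the libraries numbered 2 at days 5, 7 and 10.

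Dnajc3, with an ERSE 105 to 87 bases before its start, had 641, 524 and 143 FPKM in adult LG, 54.6, 55.8 and 55.3 at E17.5 and 57.5, 63.3 and 55.9 at LGSC day 7. Its ratio to Hspa5 was 0.443 to 0.513 in adult LG, 0.0853 to 0.110 in the embryo and 0.126 to 0.177 in the spheres, again without overlap. Dnajb11, whose ERSE-II lies just after its start, had 336, 278 and 81.4 FPKM in adult LG, 56.0, 50.5 and 46.0 at E17.5 and 90.4, 136 and 102 at LGSC day 7. Its ratio to Hspa5 was 0.253 to 0.269 in adult LG and 0.0715 to 0.107 in the embryo, and the spheres, at 0.182 to 0.367, overlapped adult LG. Hsp90b1 went the other way, with a ratio to Hspa5 of 0.243, 0.237 and 0.468 in adult LG and 0.515 to 0.833 in all other libraries.

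Of the lectin chaperones, which hold glycoproteins until they are folded, Canx was well listed and Calr was not. Canx had 186, 171 and 97.0 FPKM in adult LG, 173, 174 and 167 at E17.5 and 141, 163 and 178 at E19.5. In the spheres Canx had 283 and 329 at day 5 and 236, 285 and 246 at day 7, followed by 215, 226 and 246 at day 10 and 268, 177 and 228 at day 14. All sphere libraries except day 14 replicate 2 lay above all tissue libraries. Read-scaled means of Canx (± SD, n = 3 each) were 74.8 ± 11.4 in adult LG, 178 ± 4.54 in E17.5 LG and 284 ± 6.25 for LGSC day 7. Calr, under-listed, had 3.92 to 6.48 FPKM in adult LG, 4.34 to 7.50 at E17.5 and 1.58 to 2.29 at LGSC day 7.

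The protein disulfide isomerases form and reshuffle disulfide bonds, and Pdia4 and Pdia6 were the well-listed members. Pdia6, which carries an ERSE 98 to 80 bases before its start, had 398, 337 and 143 FPKM in adult LG, 394, 406 and 361 at E17.5 and 325, 360 and 438 at E19.5. In the spheres Pdia6 had 444 and 463 at day 5 and 321, 345 and 349 at day 7, followed by 307, 286 and 316 at day 10 and 368, 209 and 318 at day 14. Pdia4 had 183, 153 and 78.4 FPKM in adult LG, 291, 285 and 272 at E17.5, 223, 247 and 306 at E19.5 and 189, 227 and 211 at LGSC day 7. Every adult library of Pdia4 lay below every other library, on all 3 scales. Read-scaled, Pdia4 was 66.4 ± 5.99 (SD, n = 3) in adult LG and 292 ± 10.6 (n = 3) at E17.5. Its ratio to Hspa5 was 0.146, 0.147 and 0.244 in adult LG and 0.419 to 0.632 elsewhere, while that of Canx was 0.149 to 0.301 in adult LG, 0.268 to 0.329 in the embryo and 0.521 to 0.767 in the spheres.

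Of the genes of ER-associated degradation, Sel1l, the adaptor of the Hrd1 ubiquitin ligase, was the well-listed one, while Herpud1 and Edem1 were under-listed and not tested. Sel1l had 21.4, 18.8 and 8.61 FPKM in adult LG, 2.84, 2.45 and 3.08 at E17.5 and 3.78, 3.58 and 3.59 at E19.5. In the spheres Sel1l had 2.35 and 2.74 at day 5 and 2.32, 1.49 and 2.55 at day 7, followed by 2.31, 2.20 and 2.31 at day 10 and 2.58, 2.44 and 2.35 at day 14. The 3 adult libraries were the highest, and read-scaled they drew together at 8.01, 7.31 and 7.81. In TPM the adult values of 7.70, 7.50 and 13.1 overlapped those of E17.5 at 8.14, 7.03 and 8.65, and the difference did not pass (−0.18, adjusted p = 0.58).

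Ddit3 (CHOP), a transcription factor of prolonged ER stress, stayed low in every group. In passage 10 Ddit3 had 12.2 FPKM, against a mean of 2.71 at day 7, and the part of the listing in its low level was not tested. It had 3.15, 2.39 and 3.52 FPKM in adult LG, 3.001, 2.67 and 3.36 at E17.5 and 3.20, 4.29 and 3.27 at E19.5. In the spheres Ddit3 had 2.68 and 4.65 at day 5 and 3.22, 2.84 and 2.09 at day 7, followed by 2.24, 1.06 and 2.90 at day 10 and 2.75, 1.77 and 4.004 at day 14. These deposited values overlapped between groups, and E17.5 differed from adult LG by 0.00 ± 0.16 on the log2 scale (adjusted p = 0.99). In TPM, Ddit3 had 1.13, 0.957 and 5.34 in adult LG and 8.61, 7.65 and 9.41 at E17.5, a rise that passed (1.68, adjusted p = 0.0070), while read-scaled it did not (0.65, adjusted p = 0.078).

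**Figure D4:**
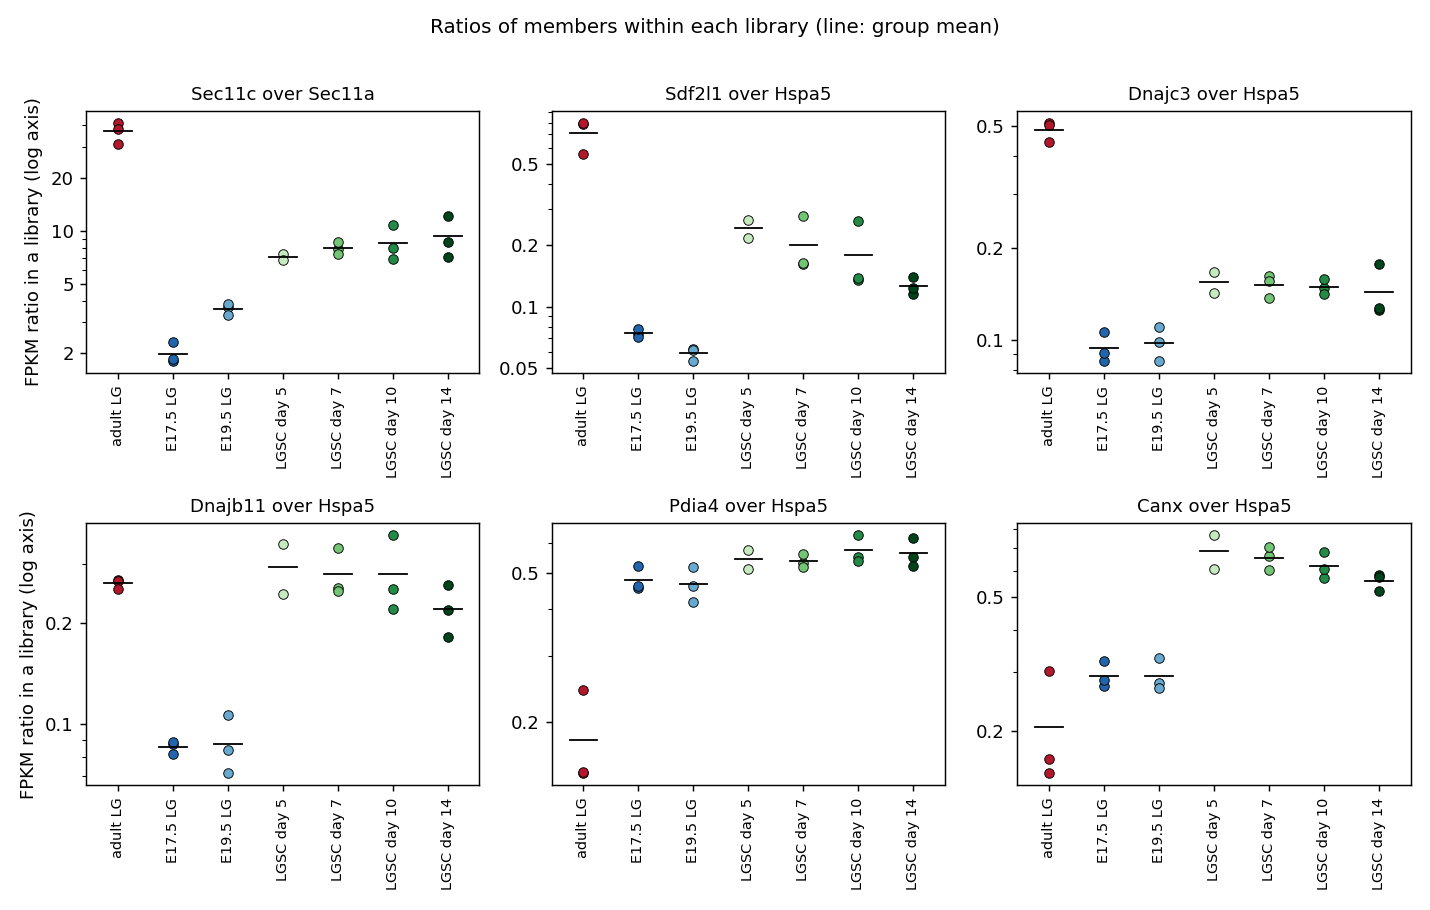
Ratio of the FPKM of member pairs within each of the 20 libraries, on log axes, with a line at each group mean. The 3 adult libraries are the highest for Sec11c over Sec11a, Sdf2l1 over Hspa5 and Dnajc3 over Hspa5 and the lowest for Pdia4 over Hspa5, and the spheres are the highest for Canx over Hspa5.

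Adult LG was then compared with the embryonic stages and with the spheres by limma on log2(FPKM + 1), a scale that understates the change of low genes. Of the 45 members, 35 reached the required mean of 0.5 FPKM in each of these fits on deposited values, and Sec63, Spcs3, Stt3b, Manf, P4hb, Pdia3, Creld2, Herpud1, Edem1 and Atf4 did not. A member that reaches this mean only through the group where it is high had to differ, so the counts describe the members that were tested. The comparisons with adult LG share the same 3 adult libraries, so they are not independent of one another.

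In E17.5 LG, 1 member was higher than in adult LG and 15 were lower on the deposited scale, with a median log2 difference of −0.74 over the 35 tested. Of all genes tested, 29.1% were higher and 24.9% lower, with a median of 0.05. The largest falls were those of Sec11c (−4.56 ± 0.40, SE, adjusted p = 3.2e-05) and Sdf2l1 (−3.56 ± 0.56, adjusted p = 0.00079). Sel1l, Spcs2, Dnajc3, Dnajb9, Dnajb11, Ssr4, Sec61a1, Sec61b, Srp9, Srp68, Rpn1, Rpn2 and Dad1 were the others that fell. Pdia4 rose (1.11 ± 0.29, adjusted p = 0.012), and Ostc had the next largest difference (0.69 ± 0.41, adjusted p = 0.18).

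The share of members in each direction depended on the scale. Read-scaled, 14 of the 35 members were higher in E17.5 and 11 lower with a median of 0.21, where 48.5% of all genes were higher and 11% lower with a median of 0.64. In TPM, 24 were higher and 3 lower with a median of 1.37, where 63.5% of all genes were higher and 4.73% lower with a median of 1.23. On all 3 scales Pdia4 rose and Sec11c, Sdf2l1 and Spcs2 fell. Read-scaled, Sec11c fell by 3.54 and Sdf2l1 fell by 2.54, and in TPM they fell by 2.37 and 1.34. By contrast Srp9, Srp68, Rpn1, Rpn2 and Dad1 passed in opposite directions on the deposited and the TPM scale, and 21 of the 35 members changed sign between scales.

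Relative to the median of all genes on its own scale, Pdia4, Ostc, Hsp90b1, Pdia6 and Canx lay above it on each of them. Read-scaled, their log2 differences were 2.12, 1.70, 1.55, 1.54 and 1.25, all with an adjusted p of 0.00012 or lower. Of the 5 well-listed genes with an ERSE, Hsp90b1, Canx and Pdia6 rose on the read-scaled values and Dnajc3 fell (−1.68, adjusted p = 0.00023). Hspa5 also passed as higher there, but its difference was close to the median of all genes on that scale (0.64). Leaving out adult replicate 3 raised the number of lower members on the deposited scale from 15 to 26. In this and the later fits with libraries left out, the share of all genes past the threshold was not counted. Such numbers therefore describe the members alone.

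**Figure D5:**
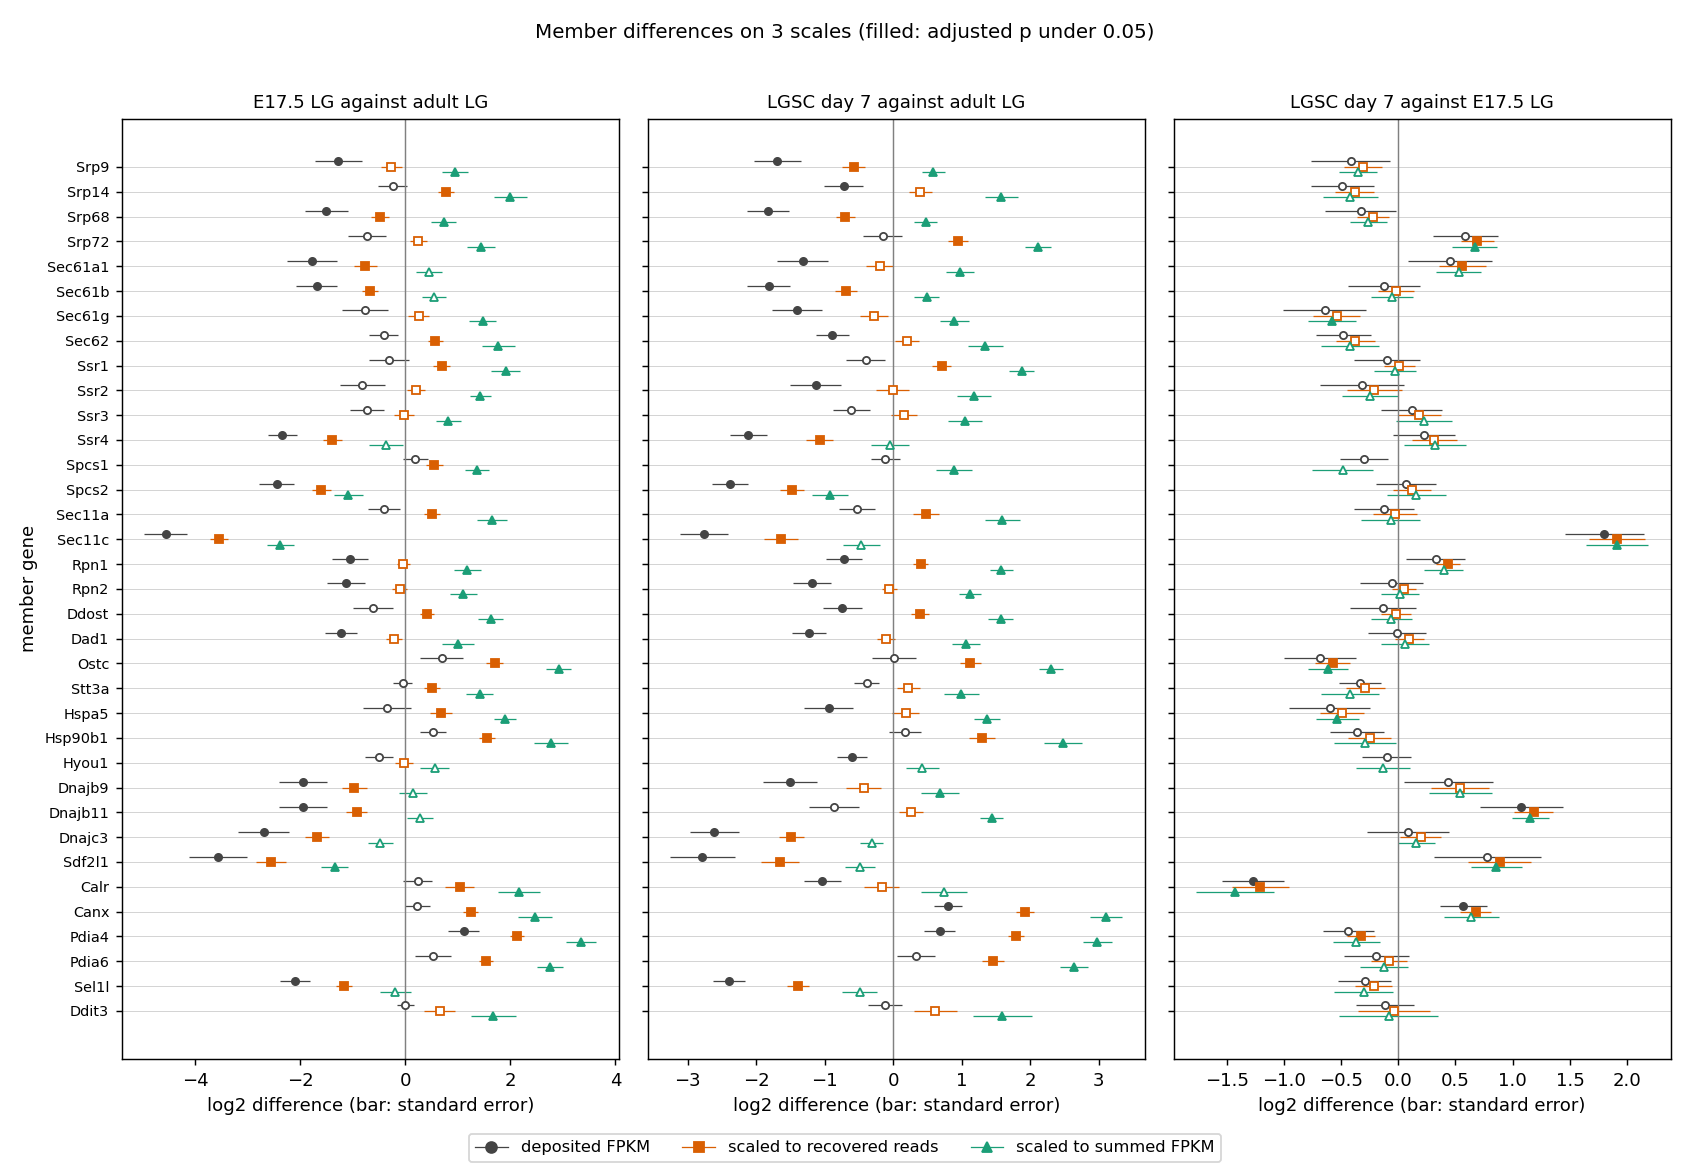
Log2 difference with its standard error for the 35 members tested on the deposited scale, in E17.5 LG and LGSC day 7 against adult LG and in LGSC day 7 against E17.5 LG, with filled symbols for an adjusted p under 0.05. In both comparisons with adult LG the 3 scales are shifted against each other in every row, with Sec11c and Sdf2l1 below 0 and Pdia4 and Canx above 0 on each of them, while in the third comparison the scales nearly coincide.

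E19.5 LG was close to E17.5 in this comparison. On the deposited scale Pdia4 alone was higher than in adult LG (0.97 ± 0.29, adjusted p = 0.021) and 14 of the 35 were lower, with a median of −0.56. Of all genes, 30.3% were higher and 23.9% lower. The largest falls were Sdf2l1 (−3.98 ± 0.56, adjusted p = 0.00046) and Sec11c (−3.46 ± 0.40, adjusted p = 0.00016), and Ostc was again second from the top (0.67 ± 0.41, adjusted p = 0.20). Read-scaled, 13 were higher and 11 lower where 46.3% and 10.6% of all genes were, and in TPM 23 were higher and 4 lower where 55.8% and 4.29% were. Pdia4 rose and Sec11c, Sdf2l1, Spcs2 and Dnajc3 fell on all 3 scales. Rpn1, Rpn2 and Dad1, subunits of the oligosaccharyltransferase, passed in opposite directions, and 17 of the 35 changed sign. The rise of Pdia4 on the deposited scale was lost without E19.5 replicate 2 (adjusted p = 0.053) or replicate 3 (adjusted p = 0.076), and with only these groups in the fit (adjusted p = 0.061), and 25 members were lower without adult replicate 3.

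Between E19.5 and E17.5, whose libraries were scaled nearly alike, none of the 35 members passed by limma on the deposited values or by limma-voom on the recovered reads, and 1 had an unadjusted p under 0.05. Of all genes, 1.11% were higher at E19.5 and 0.624% lower (207 and 116 genes, and 92 and 94 read-scaled). Sec11c had the largest difference, 1.09 ± 0.40 (95% interval 0.18 to 2.01, adjusted p = 0.24), with all E19.5 libraries above all E17.5 libraries. Read-scaled, Sec11c did rise (0.99 ± 0.17, adjusted p = 0.040), the 1 member to pass where 0.528% of all genes were higher and 0.54% lower, and it passed again with only the embryonic groups in the fit (adjusted p = 0.0080). In TPM its difference was 0.90 ± 0.26 (adjusted p = 0.20). Dad1 followed with 0.30 ± 0.30 (adjusted p = 0.74), and Sdf2l1 (−0.41 ± 0.56, adjusted p = 0.83) and Dnajb9 (−0.32 ± 0.46, adjusted p = 0.84) had the lowest differences. The sign of 8 members, Srp9, Srp72, Sec61b, Sec61g, Sec62, Ssr4, Rpn2 and Ddost, changed with the scale.

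LGSC spheres at day 7 differed from adult LG in many members. On the deposited scale 2 of 35 were higher and 22 lower with a median of −0.89, where 20.8% of all genes were higher and 26.5% lower with a median of 0.00. Canx (0.80 ± 0.20, adjusted p = 0.0043) and Pdia4 (0.68 ± 0.23, adjusted p = 0.022) rose. Sdf2l1 (−2.78 ± 0.47, adjusted p = 0.00014) and Sec11c (−2.76 ± 0.35, adjusted p = 7.1e-06) had the largest falls. Read-scaled, 10 of 33 were higher and 9 lower where 44.3% and 12.7% of all genes were, and in TPM 27 of 36 were higher and 1 lower where 55.5% and 6.7% were.

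Canx and Pdia4 rose and Spcs2 fell at day 7 on all 3 scales. The read-scaled rise of Canx was 1.92 ± 0.13 (adjusted p = 9.3e-09). Sec11c fell by 1.63 read-scaled (adjusted p = 3.6e-05), but in TPM its difference of −0.46 (adjusted p = 0.15) did not pass, nor did that of Sdf2l1 (−0.48, adjusted p = 0.072). Another 14 members, among them Hspa5, Ddost, Ssr2 and all 3 subunits of the Sec61 channel, passed in opposite directions on the deposited and the TPM scale, and 22 of 33 changed sign. The deposited difference of Pdia4 was 0.32 without adult replicate 3 (adjusted p = 0.075), and 0.62 without day 7 replicate 2 (adjusted p = 0.069). With only these groups in the fit, neither Canx (adjusted p = 0.074) nor Pdia4 (adjusted p = 0.16) passed. Without the sphere libraries numbered 2, Canx passed (0.72, adjusted p = 0.024), Pdia4 did not (adjusted p = 0.091), and 17 members were lower.

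At day 14 the comparison with adult LG gave 2 members higher and 23 lower of 35, with a median of −0.90, where 19.6% of all genes were higher and 24.9% lower. Pdia4 (0.77 ± 0.23, adjusted p = 0.011) and Canx (0.60 ± 0.20, adjusted p = 0.026) rose, the latter with overlapping groups and not without adult replicate 3 (0.31, adjusted p = 0.11). Sdf2l1 (−3.38 ± 0.47, adjusted p = 2.3e-05) and Dnajc3 (−2.68 ± 0.36, adjusted p = 1.6e-05) had the largest falls. Read-scaled, 10 of 33 were higher and 10 lower where 47.6% and 11.3% of all genes were, and in TPM 26 of 36 were higher and 1 lower where 58.3% and 6.16% were. Canx and Pdia4 rose and Sdf2l1 fell on all 3 scales, 14 members passed in opposite directions, and 24 of 33 changed sign. With only these groups in the fit, neither rise passed (Canx adjusted p = 0.21, Pdia4 adjusted p = 0.15). Without the sphere libraries numbered 2 both did (adjusted p = 0.020 and 0.023), and 16 members were lower. The lower members numbered 14 and 15 without adult replicate 1 and 2 and 29 without replicate 3.

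Spheres and embryonic LG were scaled nearly alike, so their comparison depended less on the scale. Against E17.5 LG, day 7 spheres had 3 members higher and 1 lower of 35, with a median of −0.12, where 13.7% of all genes were higher and 22.6% lower. Sec11c (1.801 ± 0.35, adjusted p = 0.00062), Dnajb11 (1.08 ± 0.36, adjusted p = 0.029) and Canx (0.57 ± 0.20, adjusted p = 0.040) rose. Calr, under-listed, fell (−1.27 ± 0.27, adjusted p = 0.0015), and Ostc had the next lowest difference (−0.68 ± 0.32, adjusted p = 0.11).

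Read-scaled, 7 members were higher, with Srp72, Sec61a1, Rpn1 and Sdf2l1 added to these 3, and Ostc, Calr and Pdia4 were lower, where 14.9% of all genes were higher and 20.1% lower. Sec11c and Dnajb11 rose and Calr fell on all 3 scales, and Ssr1, Rpn2 and Dad1 were the 3 of 33 that changed sign. Without the sphere libraries numbered 2, Sec11c alone rose, and the differences of Dnajb11 (0.91, adjusted p = 0.13) and Canx (0.49, adjusted p = 0.12) did not pass. On the deposited scale, 1 member was higher when any 1 of the E17.5 libraries, day 7 replicate 2 or day 7 replicate 3 was left out.

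Over the days of sphere culture no member passed in the reported tests. Between day 7 and day 14, 33 members were tested and none passed by limma or by limma-voom, none had an unadjusted p under 0.05, and 0% of all genes were higher and 0% lower. The paper reports genes that differed between these days by DESeq2, a test on counts. Here no gene of the 15744 tested by limma passed, so this fit could not decide whether the members changed. It also did not pair same-numbered libraries. The median log2 difference of the members was −0.09. Sec11c (0.21 ± 0.29, adjusted p = 0.82) and Calr (0.20 ± 0.18, adjusted p = 0.73) had the highest differences and Sdf2l1 (−0.59 ± 0.32, adjusted p = 0.57) and Sec61a1 (−0.36 ± 0.20, adjusted p = 0.58) the lowest. The difference of Sec11c was −0.03 without day 14 replicate 1, and no member changed sign with the scale. Without the libraries numbered 2 none passed either, and the difference of Sdf2l1 was −0.08 (adjusted p = 0.91).

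A slope over culture days 5 to 14 used all 11 sphere libraries, without pairing same-numbered libraries. None of 33 members passed by limma or limma-voom, 13 had an unadjusted p under 0.05 (2965 of all 15584 genes did), and 0.648% of all genes had a rising and 1.5% a falling slope (101 against 233 genes, and 112 against 156 read-scaled). On the deposited values 27 of the 33 slopes were negative, with a median of −0.034 log2 units per day, and read-scaled 22 of 33 were. Of all genes, 7803 of 15584 slopes were negative on the deposited values and 5970 of 16160 read-scaled. Sdf2l1 (−0.109 ± 0.03 per day, adjusted p = 0.10) and Sec61g (−0.07 ± 0.03, adjusted p = 0.20) were the lowest, and Calr (0.03, adjusted p = 0.58) and Spcs2 (0.02, adjusted p = 0.68) the highest. Srp14, Sec62, Stt3a, Hspa5 and Pdia4 changed sign with the scale. Without the libraries numbered 2 none passed, and the slope of Sdf2l1 was −0.055 (adjusted p = 0.39). Without day 14 replicate 1, Sec61a1 and Ssr1 had falling slopes that passed.

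The other genes of the pathway were counted in 6 lists, on the deposited scale unless stated. The shares of all genes higher and lower, beside which these counts stand, were 29.1% and 24.9% for E17.5 against adult LG, 30.3% and 23.9% for E19.5, 20.8% and 26.5% for LGSC day 7 and 19.6% and 24.9% for day 14, and 13.7% and 22.6% for day 7 against E17.5. Among 11 sensors of ER stress and their transcription factors, 7 were tested in E17.5 against adult LG, none was higher and 4 were lower on the deposited scale. Xbp1, the transcription factor that is spliced on ER stress and drives secretory cells, had 89.8, 65.3 and 58.8 FPKM in adult LG and 4.55, 3.61 and 2.69 at E17.5. This fall of −3.96 ± 0.24 (adjusted p = 4.6e-06) also passed read-scaled (−2.98, adjusted p = 5.7e-05). Creb3l1, a transcription factor of the secretory pathway, had 229, 212 and 60.4 FPKM in adult LG, 121, 112 and 105 at E17.5 and 3.36, 2.31 and 3.09 at LGSC day 7, where it fell against both adult LG (−5.21) and E17.5 (−4.86). In day 7 spheres 1 of the 8 sensors and factors tested was higher than in adult LG (Mbtps2, 0.45) and 4 were lower, and against E17.5 Ern1, the kinase that splices Xbp1, was the largest of 2 rises (1.40) beside 1 fall.

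Of 16 other folding enzymes, 10 were tested in E17.5 against adult LG, 2 were higher and 3 lower. Prdx4, a peroxiredoxin of the ER, had the largest rise (2.19 ± 0.27, adjusted p = 0.00020) and Ero1lb, an under-listed oxidase of the isomerases, the largest fall (−2.07). Ero1lb had 6.36, 4.12 and 1.24 FPKM in adult LG and 0.0966, 0.0312 and 0 at E17.5. It reached the required mean only through adult LG, so it had to differ. Against adult LG the folding list had 2 higher and 4 lower at E19.5, 2 higher and 7 lower at LGSC day 7, and 1 higher and 7 lower at day 14, led by Prdx4 (2.72, 0.78 and 0.68). In day 7 spheres against E17.5, 3 were lower, the most Pdia5 (−1.54).

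Of 12 other translocation genes, 8 were tested, and 1 was higher (Tram2, 0.55) and 5 lower in E17.5 than in adult LG. Srpr, the receptor of the signal recognition particle, had the largest fall at E17.5 (−2.59), E19.5 (−2.61), LGSC day 7 (−2.37) and day 14 (−2.36). Against E17.5, 1 was higher at day 7 (Srp19, 0.67) and 2 lower (most Tram2, −1.60). Of 12 other degradation genes, 7 were tested, and none was higher and 4 lower at E17.5, led by Vimp (−2.23), as it led the 5 at E19.5 (−2.03), the 3 at day 7 (−2.37) and the 3 at day 14 (−2.72). These counts depended on the scale. Read-scaled, Srpr (−1.24) and Vimp (−1.25) still fell at LGSC day 7. In TPM, no folding, translocation or degradation gene was lower than in adult LG at day 7 or day 14, where 6.7% and 6.16% of all genes were. At day 7 in TPM, 7, 4 and 5 genes of these lists were higher, where 55.5% of all genes were.

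Of 18 genes of COPII transport from the ER, 14 were tested, and 2 were higher and 5 lower at E17.5. Sec23a, a subunit of the COPII coat, had 6.94, 9.45 and 10.9 FPKM in adult LG and 71.1, 71.0 and 66.6 at E17.5, the largest rise of the list (2.82), and it rose at E19.5 (2.36), LGSC day 7 (0.86) and day 14 (1.01) as well. It fell in day 7 spheres against E17.5 (−1.96), 1 of 3 falls there. Of 12 targets of the integrated stress response, 9 were tested, and 2 were higher and 4 lower at E17.5. Chac1, which degrades glutathione, had the largest fall at E17.5 (−5.97), E19.5 (−5.94) and LGSC day 7 (−3.01), and against E17.5 it had the largest of 5 rises at day 7 (2.96). Of these 9 targets, 1 was higher and 3 lower at day 7 than in adult LG on the deposited scale (median 0.46). Read-scaled, 6 were higher and 2 lower (median 1.48), where 44.3% and 12.7% of all genes were (median 0.54). In TPM, 8 of 11 were higher and none lower (median 2.06), where 55.5% and 6.7% of all genes were (median 1.03). On the deposited scale none of the 6 lists had a member past the threshold between the embryonic stages, between day 7 and day 14 or over the culture days. On other scales Ern2, a sensor related to Ern1, was higher at E19.5 than at E17.5 in TPM (1.49, adjusted p = 0.020), and Cebpb, a stress target, had a rising slope read-scaled (0.07 per day, adjusted p = 0.042). Ern2 had at most 0.105 FPKM in adult and E17.5 LG, so it reached the required mean only through E19.5 and had to differ. Read-scaled, the counts at E17.5 against adult LG moved to 2 higher and 2 lower sensors and factors, 4 and 2 folding enzymes, 2 and 3 translocation genes, 0 and 1 degradation genes, 8 and 1 COPII genes, and 2 and 2 stress targets, where 48.5% of all genes were higher and 11% lower.

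Markers of cell types moved with the groups. A list of 8 acinar markers summed to 6486 to 16570 FPKM in adult LG and to at most 48.7 elsewhere, led by the secretory genes Car6 and Pip, while Aqp5 stayed under 0.6 and Bhlha15 was at 0 in every library. A list of 9 plasma cell markers, cells that also hold a large ER, summed to 47.5 to 75.5 FPKM in adult LG and to at most 5.87 elsewhere. Mzb1 was in the lead, and Igha and Igkc were at 0. Sdc1 of this list went the other way, with 0.0828 to 0.109 FPKM in adult LG and 0.759 to 2.30 in the spheres. A list of 6 fibroblast markers summed to 4705 to 5680 FPKM in the embryo, 164 to 323 in adult LG and at most 1.41 in the spheres, and 5 endothelial markers to at most 0.255 in the spheres. The 5 myoepithelial markers summed to 1213 to 1374 at E19.5 and 145 to 702 in adult LG. Adult replicate 3 stood apart from replicates 1 and 2 here as well. Read-scaled, its acinar markers summed to 15019, against 2533 and 2526, and its myoepithelial markers to 636, against 54.4 and 59.7. Each of the other marker lists was also highest there among the adult libraries, so scaling to reads did not make the adult libraries alike. The part of all these markers in the differences of the members was not tested.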

How the data were processed

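RNA of mouse LGSC spheres and LG was sequenced by the authors as 150-bp paired-end libraries (NEBNext Ultra, poly-A RNA). The submitters' processing notes name CASAVA 1.8, HISAT2 2.0.5, featureCounts 1.5.0-p3 and build NCBIM37. The authors deposited 1 table per library, and its values were read as FPKM from their size, gene-length dependence and steps, since the sources used here do not name the unit. Of 24 samples in the labels, 21 were used. A day 5 replicate and passages 6 and 20 were not analysed here. Samples were grouped by stage, culture day and passage in the labels.

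Reads were recovered from the steps of low values (whole within 0.01, up to 1000 reads, for 92.6% to 93.6% of genes), with gene lengths of GENCODE M21 (52489 of 52636 Ensembl identifiers matched, beside 11226 assembled loci). Values were also rescaled to recovered reads and to the summed FPKM (TPM).

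Tests used limma 3.58.1 (R 4.3.3; lmFit, eBayes with trend, two-sided) on log2(FPKM + 1) for genes with a mean of at least 0.5, with Benjamini-Hochberg adjustment over all genes of a fit and a threshold of 0.05. Tissue fits held 9 libraries, fits of spheres with tissue 20, day 14 against day 7 held 6 and the slope 11. Scripts were tested on simulated data. Alternatives were a pseudocount of 0.1, no filter, other scales, voom on recovered reads, only the groups compared, the replicate number as a block, log2 of the day, and libraries left out. In the spheres, same-numbered libraries deviated together (mean correlation 0.371 between day 7 and day 14 and 0.457 over all days, every pair above 0.255). The numbers thus behaved as pairs there, by the data and not by the labels. In the other comparisons same-numbered libraries did not deviate together (−0.077 to 0.072). The reported tests did not use these pairs, and the replicate number entered as a block only in an alternative fit.

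Named were the member of highest mean FPKM in each role, the 2 highest and 2 lowest log2 differences of a comparison, every member past the threshold where these were 10 or fewer, and the largest rise and fall of each other list. Members and lists were chosen with earlier results of these data known. Tables were handled in Python 3.11.15 with pandas 2.3.3 and numpy 2.4.6, and drawn with matplotlib 3.10.9. The promoter search was over 32851 RefSeq windows.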

Additional observations from a re-analysis of the deposited data

Results flagged for a closer look

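The passage 10 library entered no test between groups and was used to judge how members were listed, and 3 members that were listed at 0 in all 20 other libraries had a level there. Atf4, the transcription factor of the integrated stress response, had 149 FPKM in passage 10. Creld2, a disulfide isomerase of the ER, had 24.1 FPKM and Spcs3, a subunit of signal peptidase, had 23.8 FPKM. The passage 10 table was made against another gene list and had 25181779 recovered reads, so these values stand beside the zeros without a test.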

How the results depend on the processing

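The counts of members past the threshold rested mainly on the scale of the adult libraries. For the alternatives below other than TPM and read-scaled values, the share of all genes was not counted. Scaled to TPM, read-scaled, by voom on recovered reads, and read-scaled without adult replicate 3, the members higher than in adult LG were 24, 14, 14 and 15 at E17.5 (1 as reported), 23, 13, 12 and 13 at E19.5 (1), 27, 10, 10 and 10 at LGSC day 7 (2) and 26, 10, 10 and 11 at day 14 (2). With only the groups compared they were 0 at E19.5, day 7 and day 14. The lower ones were 3 at E17.5 and 4 at E19.5 in TPM. At day 7 they were 1, 9, 9 and 11 in the same order and 13 with only the groups compared, and at day 14 they were 1, 10, 10, 12 and 13 (22 and 23 as reported). Without the sphere libraries numbered 2, day 7 had 1 higher. Day 7 against E17.5 had 7 higher read-scaled, by voom and with only these groups, and 1 without the libraries numbered 2. It had 4 lower in TPM, 3 read-scaled, 5 by voom, 11 with only these groups and 0 among well-listed members. E19.5 against E17.5 had 1 higher read-scaled and 1 with only these groups, and the slope had 1 lower over log2 of the day. With each library left out in turn, the higher members ranged from 1 to 2 at E17.5, 0 to 2 at E19.5, 1 to 2 for day 7 and likewise for day 14, and 1 to 2 for day 7 against E17.5. The lower ones ranged from 11 to 26 at E17.5, 11 to 25 at E19.5, 16 to 29 for day 7 and 14 to 29 for day 14, the most without adult replicate 3 and the fewest without adult replicate 1 or 2, and from 0 to 2 for the slope. With the replicate number as a block the counts higher and lower were 1 and 14 at E17.5, 1 and 13 at E19.5, 2 and 22 for day 7, 2 and 24 for day 14, and 2 and 1 for day 7 against E17.5, where Canx no longer passed (adjusted p = 0.051), and 0 for E19.5 against E17.5, for day 14 against day 7 and for the slope. On the deposited and the TPM scale, 5 members at E17.5, 3 at E19.5, 14 at day 7 and 14 at day 14 passed in opposite directions against adult LG. The causes of these shifts were not tested. With 2 or 3 libraries a group and values near 0 for 16 members, small differences were not detectable.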
